A study of Mus musculus with 35 samples.

Results

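The cytosolic ribosomal protein genes encode the proteins of the ribosome that translates nuclear mRNAs. They were taken by symbol alone: every gene named Rpl or Rps followed by a number and at most one of the letters a, x or l, together with the stalk genes Rplp0, Rplp1 and Rplp2 and the gene Rpsa, with pseudogene entries (symbols ending in -ps and a number) left out. This gave 82 of the 32544 genes in the count tables, 50 of the large subunit and 32 of the small subunit. A few genes whose symbols have another form, such as Rps3a1, Rpl22l1 and Fau, fall outside this rule.

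The libraries were made from the hippocampi of male C57BL/6JOlaHsd mice aged 7 to 9 weeks, each library from 1 mouse. IAKA mice received kainic acid, an agonist of excitatory glutamate receptors, into the amygdala, which induces status epilepticus and later epilepsy, and PBS mice received the vehicle by the same route. Hippocampi were taken 24 hours or 2 weeks later. RNA was sequenced as input and after immunoprecipitation with an antibody against N6-methyladenosine (m6A), a methyl mark on adenosine within RNA. Mice 50, 78 and 79 have an m6A library and no input. Of 35 libraries, 19 are m6A libraries (3 PBS and 5 IAKA mice at 24 hours, 5 PBS and 6 IAKA mice at 2 weeks) and 16 are inputs, of which 13 held at least 100000 counts and were used (1 PBS and 3 IAKA mice at 24 hours, 3 PBS and 6 IAKA mice at 2 weeks). Those 13 mice also had an m6A library each. The 3 shallow inputs, with 3171 to 34486 counts, were left out.

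Inputs used held 3057578 to 12694434 counts and m6A libraries 1652933 to 34564536, so that 3 counts, the limit that a count of 0 allows, were worth 0.236 to 0.981 CPM (counts per 1000000 counts of the library) in those inputs. This covers counting error only. Markers of excitatory neurons such as Slc17a7 and Camk2a were present in every group, with a summed level of 671 to 2633 CPM in the inputs. Markers of choroid plexus ran from 54.8 to 1566 CPM in the inputs and from 9.16 to 2283 CPM in the m6A libraries. Those of endothelial cells ran from 438 to 1211 CPM and from 133 to 884 CPM. Whether tissue composition bears on the values below was not tested. Mitochondrial mRNAs took 17.4% of the counts of the input of IAKA mouse 8 and 16.4% of its m6A library, and the 10 most counted genes took 17.3% of the PBS input at 24 hours against 27.3% to 38.0% in the other inputs. The m6A libraries were made from 10 ng and the inputs from 50 ng of RNA, so a difference between assays and a difference in library preparation cannot be told apart.

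Each cytosolic ribosome has a large subunit, which forms peptide bonds, and a small subunit, which reads the mRNA. Ribosomal protein mRNAs are short and abundant, begin with a run of pyrimidines (the terminal oligopyrimidine tract, through which mTOR signaling controls their translation), and many of their introns encode small nucleolar RNAs (snoRNAs). In neurons they are translated in the cell body and also in dendrites and axons.

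Ribosomal protein genes took about 1% of the counts of either assay. In the inputs their summed share was 1.54% in the PBS mouse at 24 hours and 0.774%, 0.699% and 1.49% in the IAKA mice at 24 hours. At 2 weeks it was 1.04%, 1.38% and 1.22% in PBS mice (1.21% ± 0.170, SD, n = 3) and 0.716% to 1.23% in IAKA mice (0.996% ± 0.206, SD, n = 6). The PBS and IAKA inputs overlapped at 2 weeks, and at 24 hours the 3 IAKA inputs lay below the single PBS input, the highest of them narrowly. In the m6A libraries the share was 0.850% ± 0.504 (SD, n = 3) in PBS and 1.00% ± 0.347 (SD, n = 5) in IAKA mice at 24 hours, and 1.04% ± 0.498 (SD, n = 5) and 1.13% ± 0.281 (SD, n = 6) at 2 weeks. A smaller share in such bulk tissue cannot tell fewer cells of a type from less RNA per cell.

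**Figure D1:**
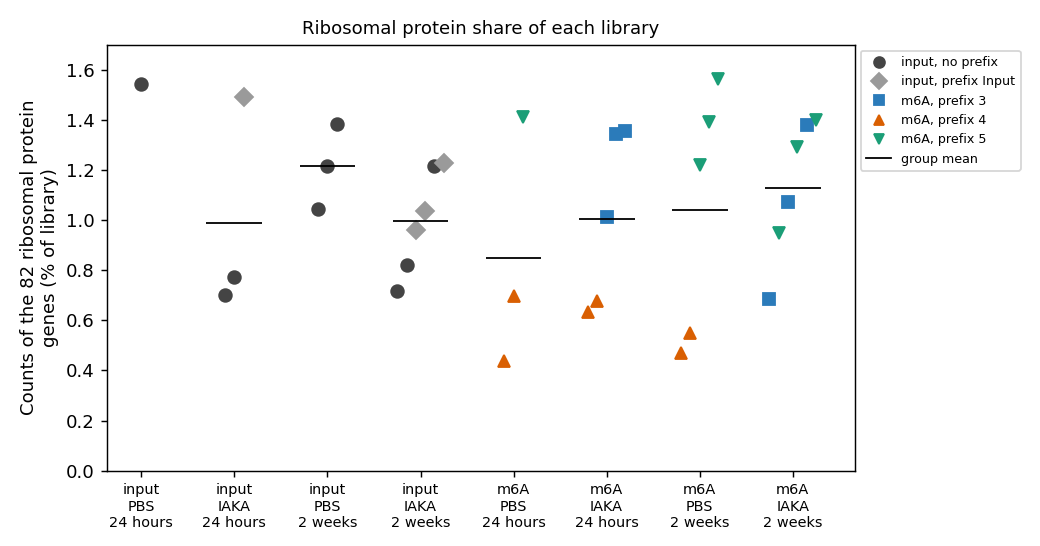
Summed share of counts (percent) taken by the 82 cytosolic ribosomal protein genes in each input and m6A library, by group; each point is 1 library, marked by the prefix of its column name in the count tables, and bars are group means. PBS and IAKA points overlap except in the inputs at 24 hours, where the single PBS input (1.54%) lies just above the highest IAKA input (1.49%), and m6A libraries with the prefix 4 lie between 0.439% and 0.699%, below or at the lower end of the others.

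The first question was whether these transcripts were over- or underrepresented after m6A immunoprecipitation, with each mouse's m6A library set against its own input. Of 77 ribosomal protein genes with enough counts to test, 22 were higher and 17 lower in the m6A libraries at an adjusted P under 0.05. These 39 make up 50.6% of the ribosomal protein genes, where 30.2% of all 14640 genes tested were called. By direction, 28.6% were higher, beside 15.6% of all genes, and 22.1% were lower, beside 14.6%. The median log2 fold change was 0.05 over the ribosomal protein genes and -0.03 over all genes, so that the group as a whole was not displaced while its members moved apart in both directions. More than 2-fold differences were found for 7 of them (9.09%, beside 1.87% of all genes). In 14 (18.2%, beside 8.72% of all genes) the m6A value in CPM exceeded the input in all 13 mice, and in 0 (beside 0.239%) did it lie below the input in all 13. Scaling by library size alone, in place of trimmed means, gave 35 higher and 8 lower with a member median of 0.27, while 33.5% of all genes were higher and 3.26% lower with a median of 0.18. Under that scaling 9 of the 17 genes called lower (among them Rpl12, Rpl13a, Rpl27a, Rpl35, Rpl5, Rplp0, Rplp2 and Rps27a) kept their sign but not the call. The numbers of mice in each direction, here and below, use CPM, which is also scaled by library size alone. They therefore lean toward higher values than the fold changes beside them.

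**Figure D2:**
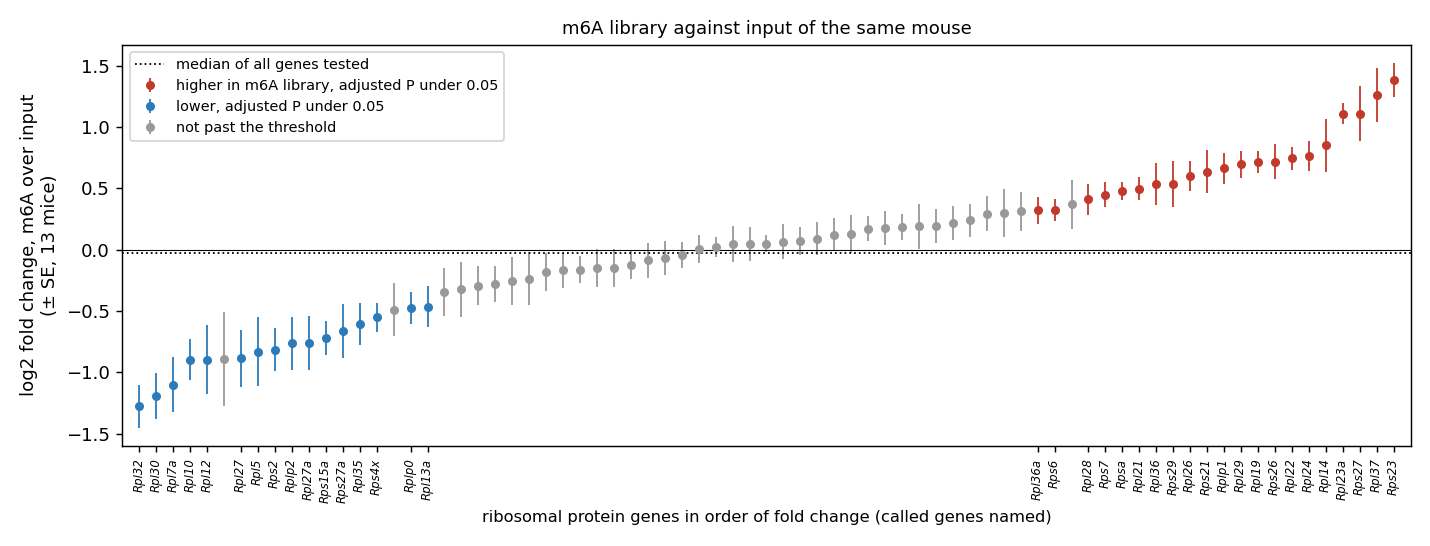
Log2 fold change of the m6A library over the input of the same mouse for 75 of the 77 ribosomal protein genes tested, in order of their fold change, with standard errors, over 13 mice; the called genes are named, red points were called higher, blue points lower and gray points neither, and the dotted line is the median of all genes. The genes spread from -1.28 (Rpl32) to 1.38 (Rps23) around a median of all genes near 0.

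Among the 46 large subunit genes tested, 13 were higher and 12 lower, with a median log2 fold change of 0.03. Rpl37, a zinc-binding protein that contacts the large subunit rRNA, ran from 6.84 to 28.1 CPM (median 16.7) in the 13 inputs and from 22.6 to 242 CPM (median 37.5) in the m6A libraries. Rpl23a, which lies at the exit of the peptide tunnel, ran from 116 to 310.1 CPM (median 199.9) in input and from 234 to 680.5 CPM (median 499.9) after immunoprecipitation. Rpl14 ran from 18.8 to 60.6 CPM (median 44.5) and from 46.5 to 522 CPM (median 83.2). All 3 were higher in the m6A library of every mouse, although the ranges of the assays overlapped, and the highest m6A value of each came from PBS mouse 4 at 2 weeks. The log2 fold changes were 1.26 (SE 0.22, adjusted P = 0.0007) for Rpl37, 1.11 (SE 0.085, adjusted P = 1.8e-07) for Rpl23a and 0.85 (SE 0.22, adjusted P = 0.00912) for Rpl14. Smaller increases were called for Rpl24 (0.76), Rpl22 (0.74), Rpl19 (0.71), Rpl29 (0.70), Rpl26 (0.60), Rpl36 (0.53), Rpl21 (0.50), Rpl28 (0.41) and Rpl36a (0.32).

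The large subunit genes that were lower included the most strongly depleted ribosomal protein transcripts. Rpl32 ran from 239.5 to 596 CPM (median 426) in input and from 80.2 to 357 CPM (median 211) in m6A libraries, and was lower in 11 of 13 mice (log2 fold change -1.28, SE 0.17, adjusted P = 9.57e-05). Rpl30, which also binds its own transcript, ran from 84.2 to 215 CPM (median 123) and from 37.8 to 108 CPM (median 65.5), and was lower in 12 of 13 mice (-1.19, SE 0.19, adjusted P = 0.000317). Rpl7a ran from 126 to 725 CPM (median 327) and from 72.6 to 284 CPM (median 183), also lower in 12 of 13 mice (-1.10, SE 0.22, adjusted P = 0.00216). None of these 3 genes had separate ranges in the assays. Rpl10, a late-joining protein needed for the subunits to join, was lower in 11 of 13 mice (-0.90, SE 0.17, adjusted P = 0.000998). Rpl12, at the base of the stalk, was lower in 10 of 13 (-0.90, SE 0.28, adjusted P = 0.0297), with m6A values from 32.4 to 437 CPM. Rpl27 (-0.88), Rpl27a (-0.76), Rpl35 (-0.60) and Rpl13a (-0.46) were lower as well, although the sign of Rpl27 turned once pseudogene counts were added. Of the 13 fits that left out 1 mouse, 7 lost the call of Rpl12 and 10 that of Rpl13a.

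Of the 31 small subunit genes tested, 9 were higher and 5 lower, with a median of 0.09. Rps23, a protein of the decoding center, had the largest estimate of all by its own entry, 1.38, and 0.70 once pseudogene counts were added: it ran from 45.6 to 180.1 CPM (median 97.5) in input and from 116 to 609 CPM (median 285) in m6A libraries, higher in 13 of 13 mice (SE 0.14, adjusted P = 3.68e-06). Rps27 ran from 14.6 to 67.2 CPM (median 39.2) in input and from 31.7 to 452 CPM (median 81.5) after immunoprecipitation, again higher in every mouse (1.11, SE 0.23, adjusted P = 0.00236). Both overlapped between the assays when mice were not paired. Rps26 (0.72), Rps21 (0.64), Rps29 (0.54) and Rps7 (0.45) were among the others called higher. Rps2, near the mRNA entry channel, was the lowest called gene of the small subunit (-0.82, SE 0.18, adjusted P = 0.0029), and Rps15a (-0.72), Rps27a and Rps4x were lower too.

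The stalk proteins, which recruit elongation factors to the large subunit, did not move together. Rplp0, the anchor of the stalk, ran from 63.6 to 111 CPM (median 95.2) in input and from 44.5 to 157 CPM (median 75.6) in m6A libraries and was lower in 8 of 13 mice (-0.48, SE 0.13, adjusted P = 0.00934). Rplp1 ran from 138 to 285 CPM (median 185) and from 179 to 851 CPM (median 343), higher in 13 of 13 mice (0.66, SE 0.13, adjusted P = 0.000891). Rplp2 ran from 98.7 to 165 CPM (median 138) and from 45.2 to 238 CPM (median 80.6), lower in 9 of 13 mice (-0.76, SE 0.22, adjusted P = 0.0159). The transcripts of the acidic partners Rplp1 and Rplp2 therefore lay on opposite sides of input, except that in the 4 mice at 24 hours Rplp2 was at 0.0988.

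Members with known functions outside the ribosome were also divided. Rpsa, which also encodes the laminin receptor precursor, ran from 166 to 360 CPM (median 254) in input and from 302 to 599 CPM (median 438) in m6A libraries (0.48, SE 0.076, adjusted P = 0.000214, higher in 13 of 13 mice). Rps6, the substrate of S6 kinase, was higher in 13 of 13 mice by a smaller amount (0.32, SE 0.091, adjusted P = 0.0126), a call that was lost once pseudogene counts were added (0.12, adjusted P = 0.335). Rpl5 and Rpl11 carry 5S rRNA and bind MDM2. Rpl5 was lower (-0.83, SE 0.28, adjusted P = 0.0389) in only 8 of 13 mice, with input values from 605 to 3188 CPM, and Rpl11 was not called (0.18). Rps27a, which is made as a fusion with ubiquitin, was called lower (-0.66, SE 0.22, adjusted P = 0.0349) although only 7 of 13 mice showed that direction in CPM. The calls of Rpl5 and Rps27a were each lost in 7 of the 13 fits that left out 1 mouse.

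**Figure D3:**
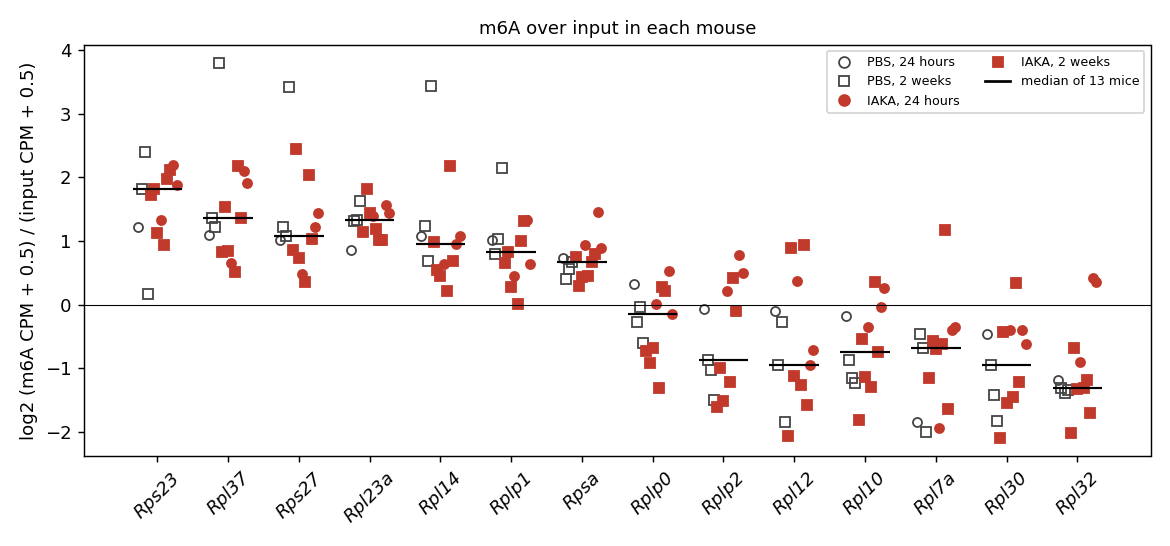
Log2 ratio of m6A to input CPM (0.5 CPM added to both) in each of 13 mice for 14 ribosomal protein genes; open symbols are PBS and filled symbols IAKA mice, and lines are medians. Rps23, Rpl37, Rps27, Rpl23a, Rpl14, Rplp1 and Rpsa lie above 0 in every mouse, while each gene on the right has at least 1 mouse above 0, and 1 PBS mouse at 2 weeks stands apart at 3.80 for Rpl37, 3.42 for Rps27 and 3.44 for Rpl14. CPM is scaled by library size alone, a scaling by which the median of all genes lay above 0.

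Tissue-restricted paralogs were nearly silent. Rpl3l of heart and skeletal muscle and the testis genes Rpl10l and Rpl39l had the lowest mean CPM of all members in both assays, and with Rpl6l and Rps12 were the 5 members with too few counts for the within-mouse test. Rpl39l had counts in 1 of 13 inputs (0.17 CPM). Their partners Rpl3 and Rpl39 were not called (-0.06 and -0.24). Rps27l, a p53-responsive copy of Rps27, ran from 1.79 to 5.55 CPM in input (median 3.27) and was not called (-0.26), whereas Rps27 was. Rps4l ran from 4.44 to 10.1 CPM in input (median 5.56) and was not called (0.24), whereas X-linked Rps4x was lower (-0.55, SE 0.12, adjusted P = 0.00196). At the other end, Rpl5 (mean 1257 CPM), Rpl13a (775 CPM) and Rps3 (544 CPM) took the most input counts, and Rpl5 (590.1 CPM), Rpl13a (519.6 CPM) and Rpl26 (490.3 CPM) the most m6A counts. CPM is not per length, so this order is one of counts and not of transcript number.

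Rpl5, Rpl13a and Rps3 all host snoRNA genes in their introns, and total RNA libraries can hold snoRNAs and unspliced RNA. By the GENCODE annotation of GRCm39, 28 of the 81 members found there host at least 1 snoRNA; Rpl13a holds Snord32a, Snord33, Snord34 and Snord35a, Rps3 holds Snord15a and Snord15b, and Rpl5 holds Snord21 and 2 others. Of the 27 host genes tested, 4 were higher and 9 lower in m6A libraries (median log2 fold change -0.15), and of the 50 other members 18 were higher and 8 lower (median 0.18). Among 207 host genes that are no ribosomal protein genes, 41 were higher and 36 lower (median 0.02). The host genes made up 67.9% and 67.8% of all ribosomal protein CPM in the inputs of PBS mouse 1 and IAKA mouse 8, 48.1% to 56.7% in the other 11 inputs and 44.4% to 53.0% in the m6A libraries. In those 2 inputs Rpl5 stood at 3188 and 2965 CPM, against 605 to 1342 CPM in the others. Whether reads of snoRNAs or introns were counted to these genes was not tested, and the split by host status was made after the values were seen.

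m6A is placed mainly at a short consensus whose most favored form is GGACT, so this motif was counted in the annotated coding sequence, on the transcribed strand. It occurred in 23 of 77 tested members (29.9%) and in 77.9% of all coding genes. Among genes with a coding sequence within the range of the members (138 to 1257 nucleotides) it occurred in 60.5%. Lengths were not matched within that range. The median coding length was 468 nucleotides in members and 1452 in all genes. Per 1000 nucleotides of coding sequence there were 0.651 in members and 1.23 in genes within that range. Members with a motif in the coding sequence were higher in 8 and lower in 3 cases (median 0.17). Members without one there were higher in 14 and lower in 14 (median 0.01). Motifs elsewhere in the transcript do not enter this split: Rpl29, with 0 in the coding sequence, had 8 in its whole transcript. Of 3272 genes within the length range of the members and with a motif, 511 were higher and 471 lower (median -0.02). Without a motif, 416 were higher and 241 lower of 2140 (median 0.02). Over the 77 members, which share libraries, the number of motifs and the log2 fold change correlated weakly (Spearman's rho 0.11, Pearson's r 0.09), and the number of exons inversely (rho -0.25, r -0.24). Over 13021 genes with a coding sequence, motifs had rho -0.11 and r -0.09, and exons rho -0.18 and r -0.13. A motif is a match of letters and no measured methylation site.

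The motif with 10 bases on either side is shown for 3 called members that were higher (Rpl37, Rpl24, Rpl22) and 3 that were lower (Rps2, Rps27a, Rpl13a), as GGACT windows on both sides of the division. Capitals mark the motif, coordinates are those of GRCm39, and each window lies within 1 exon and in the coding sequence, except that the last 3 bases of the Rpl13a window are its stop codon.
Rpl37, chr15:5147130-5147154, plus strand: aacactaccgGGACTggtcggatga
Rpl24, chr16:55787483-55787507, plus strand: cagataaactGGACTgtcctctaca
Rpl22, chr4:152411984-152412008, plus strand: agttcaccctGGACTgcactcaccc
Rps2, chr17:24939950-24939974, plus strand: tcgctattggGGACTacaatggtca
Rps27a, chr11:29496717-29496741, minus strand: gaagatggccGGACTttgtctgact
Rpl13a, chr7:44775370-44775394, minus strand: caagaccaacGGACTcctggtgtga

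The start of the transcript was read from the RefSeq promoter sequences (GRCm38.p6), which held 60 of the 82 members with 72 starts. A run of at least 8 pyrimidines (C or T on the transcribed strand) lay within 20 bases before to 10 bases after the start in 28 of 72 member starts (38.9%) and in 12.6% of all 32851 starts. By gene, 27 of 60 members (45%) had such a run at any start, beside 14.5% of genes. The windows below are from Rpl14 and Rps27, higher in m6A libraries, and Rpl7a and Rplp2, lower, so that the run occurred on both sides; Rps23, the highest, had a longest run of 6. Capitals mark the longest pyrimidine run.
Rpl14, chr9:120571497-120571526, plus strand: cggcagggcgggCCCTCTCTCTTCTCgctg
Rps27, chr3:90213639-90213668, minus strand: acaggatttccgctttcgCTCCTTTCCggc
Rpl7a, chr2:26910787-26910816, plus strand: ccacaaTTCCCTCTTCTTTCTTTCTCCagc
Rplp2, chr7:141447631-141447660, plus strand: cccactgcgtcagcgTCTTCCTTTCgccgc
Rps23, chr13:90923102-90923131, plus strand: acggggccttcggctgggcggggCTTCCCg

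Ribosomal protein genes have many processed pseudogenes, near-identical copies that can take up their reads, and the count tables list 274 such entries for them. In the inputs, 4 of the 58 members with such an entry had fewer counts than their copies: Rps12 had a mean of 3.11 CPM against 53.2 CPM in its copies, Rpl14 40.5 against 75.2, Rps2 117 against 134.5 and Rpl27 15.5 against 17.0. Rps23 (95.8 CPM) and its copies (87.2 CPM, nearly all in Rps23-ps1) were about equal. When the counts of the copies were added to their parent gene, Rps23 remained higher in m6A libraries by a smaller amount (log2 fold change 0.70, adjusted P = 0.000352), Rpl14 was at 1.07 (adjusted P = 6.64e-06) and Rps2 at -1.31 (adjusted P = 0.000115). Rpl27 changed sign, from -0.88 to 0.54 (adjusted P = 0.035), and Rps6 (0.12) and Rpl28 (0.20) were no longer called, whereas Rpl17, not called before (0.37), was at 0.88 (adjusted P = 6.98e-05). Values of these genes are therefore uncertain. Rps12, usually an abundant protein of the small subunit, is low here only as its own entry, with 0 to 13.1 CPM in the inputs.

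Other genes of the translation machinery were taken as lists for comparison. Of 26 elongation and initiation factors and other genes with a terminal oligopyrimidine tract, 7 were higher and 5 lower in the m6A libraries (median -0.04), among them the helicase gene Eif4a2 (-1.58, adjusted P = 4.35e-07), the ribosome-bound scaffold Rack1 (-0.996) and nucleophosmin, Npm1 (0.73). Of 37 genes of ribosome biogenesis, 18 were higher and 1 lower (median 0.31), including Utp3 (1.28), nucleolin, Ncl (0.92), and Nolc1 (0.60). Of 77 mitochondrial ribosomal protein genes tested, 20 were higher and 3 lower (median 0.17), with Mrps21 at 1.19, Mrps25 at 0.69 and Mrpl18 at 0.59. Higher and lower calls were near even in the cytosolic ribosomal proteins and in the factors and not in the other lists here, a difference that was not tested. They were near even over all genes too (15.6% higher and 14.6% lower). The same held for snoRNA host genes that are no ribosomal protein genes (41 higher and 36 lower). By library size alone the cytosolic members were 35 higher and 8 lower.

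The next question was whether IAKA altered ribosomal protein transcripts in the input RNA. By edgeR 0 of the 80 members tested were called at either time, and 0 of all 17644 genes (0%). Members with an unadjusted P under 0.05 numbered 4 at 24 hours (5%, beside 9.23% of all genes) and 3 at 2 weeks (3.75%, beside 8.16%). With the column prefix as a block they numbered 12 (15%, beside 12%) and 29 (36.2%, beside 17.7%), and in the inputs without a prefix alone 24 (30.8%, beside 22.1%) and 15 (19.2%, beside 17.4%). At 24 hours the median log2 fold change was 0.01 in members and 0.27 in all genes, and 41 of 80 members lay above 0 (51.2%, beside 66% of all genes). At 2 weeks it was -0.23 in members and 0.01 in all genes, and 9 of 80 lay above 0 (11.2%, beside 51.7%). Lower values in IAKA mice at 2 weeks were thus frequent and small, and the members share the same 9 libraries. This median stayed below 0 when any 1 library was left out (-0.35 to -0.07). The PBS group at 24 hours is 1 input, so its spread was assumed to be that of the other groups.

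Rpl31 had the smallest P of the members in the 2-week inputs. Its values were 161, 184 and 156 CPM in PBS mice, and in the 6 IAKA mice the lowest was 76.5, the median 117 and the highest 155 CPM. Every IAKA input lay below every PBS input (log2 fold change -0.55, SE 0.22, adjusted P = 0.586). Rpl5 had 1020, 1329 and 1342 CPM in PBS mice and 651 to 1133 CPM in IAKA mice (-0.49, SE 0.46, adjusted P = 0.845). Rpsa (-0.32), Rps6 (-0.20), Rpl11 (-0.38) and Rps27a (-0.23) had negative estimates that did not pass, and so did Rpl3 (-0.32). The stalk genes had 0.27 (Rplp0), 0.03 (Rplp1) and -0.17 (Rplp2).

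At 24 hours Rplp0 came nearest to a call in the inputs. It was at 63.6 CPM in the PBS mouse and at 108, 94.2 and 95.2 CPM in the IAKA mice (log2 fold change 0.95, SE 0.24, adjusted P = 0.315). DESeq2 (0.94, adjusted P = 0.0057) and limma voom (0.89, adjusted P = 0.0341) called it, where they called 0.442% and 3.2% of all genes higher. Rplp2 (0.50, adjusted P = 0.532) and Rplp1 (0.53, adjusted P = 0.752) were not called. Rpl5 was at 3188 CPM in the PBS mouse and at 632, 605 and 2965 CPM in IAKA mice, the last being mouse 8, whose input had the largest mitochondrial share. Without mouse 8, 4 members were called lower in IAKA mice (Rpl5 -2.14, Rps23 -1.56, Rpl21 -1.41 and Rps21 -1.34) and the member median was -0.27, while 0.591% of all genes were called in each direction and their median was 0.03. The part of that library and of the single PBS input in these values was not tested.

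**Figure D4:**
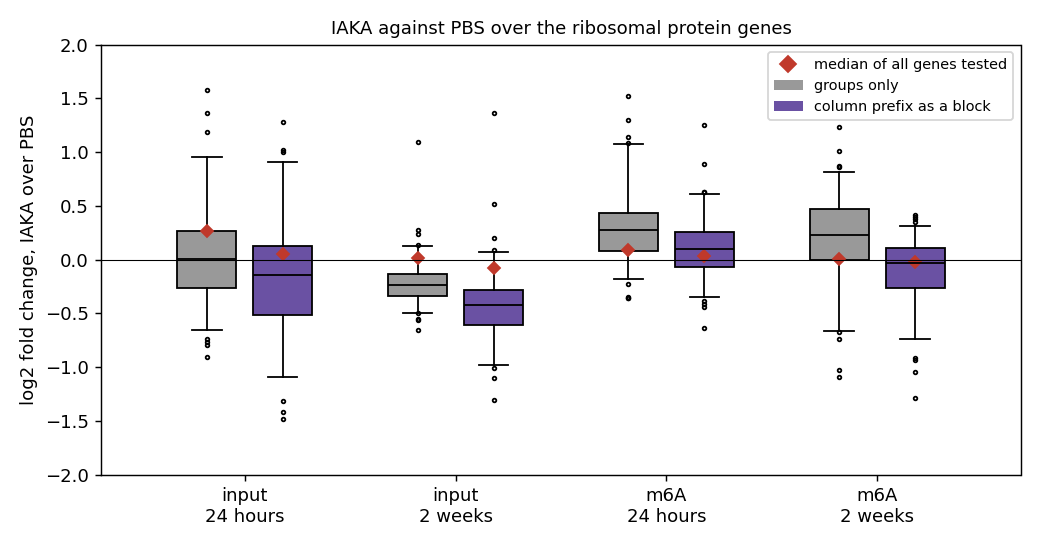
Log2 fold changes of IAKA against PBS for the ribosomal protein genes in the inputs and m6A libraries at each time, from the fit with groups only and with the column prefix as a block; boxes are quartiles, whiskers the 5th to 95th percentile, points single genes, and red diamonds the median of all genes. Values beyond the axis are not drawn: Rps12 at 6.22 and 6.28 in the inputs at 24 hours, and Rpl10l at -2.75 and -5.14 in the inputs with the block. In the 2-week inputs most points lie below 0 in both fits, while in the m6A libraries the boxes move toward 0 with the block.

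In the m6A libraries none of the 78 members tested was called at either time by edgeR, while 31 of 17440 genes (0.178%, 0.172% higher and 0.00573% lower) were at 24 hours and 1 (0.00573%) at 2 weeks. Members with an unadjusted P under 0.05 numbered 3 at 24 hours (3.85%, beside 6.95% of all genes) and 1 at 2 weeks (1.28%, beside 4.07%). Most estimates were above 0 at both times: 63 of 78 at 24 hours (80.8%, beside 58.6% of all genes), with a median of 0.27, and 57 of 78 at 2 weeks (73.1%, beside 50.6%), with a median of 0.23. With the column prefix as a block the medians were 0.10 and -0.03. Rplp0 was at 47.5, 36.0 and 79.9 CPM in PBS and at 157, 84.7, 77.5, 63.7 and 95.3 CPM in IAKA mice at 24 hours, so that the groups overlapped (0.80, SE 0.38, adjusted P = 0.708; called by limma voom at an adjusted P of 0.045, with 5.28% of all genes higher). Rps3, of the mRNA entry channel, was at 138, 107 and 196 CPM in PBS and at 572, 552, 160.2, 150.5 and 371 CPM in IAKA mice (1.30, SE 0.52, adjusted P = 0.583), the 3 highest being those with the prefix 3. Of the lists, only the mitochondrial ribosomal protein gene Mrps6 was called in any IAKA comparison (1.65, SE 0.33, adjusted P = 0.0454, m6A at 24 hours).

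No member was called in the difference of the IAKA effect between 2 weeks and 24 hours, in either assay, nor in the change of m6A over input with IAKA at either time. The median of the time difference was -0.23 in the inputs and -0.07 in the m6A libraries, and that of the change in m6A over input -0.14 at 24 hours and 0.07 at 2 weeks. Members with an unadjusted P under 0.05 numbered 3 (beside 3.08% of all genes) and 1 (beside 2.45%) for the time differences in inputs and m6A libraries, and 1 (beside 1.18%) and 4 (beside 4.58%) for the changes in m6A over input at 24 hours and 2 weeks. With standard errors such as 0.73 (inputs) and 0.76 (m6A) for Rpl5 at 24 hours, the absence of calls does not show that levels were equal.

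A wide difference among m6A libraries followed the names of their columns. The column names of m6A libraries begin with 3, 4 or 5. Columns with the prefix 3 were deposited in sets labeled group 3, and columns with the prefix 4 in sets labeled group 4. What the number stands for beyond this is not given in the sources used here. The summed share of ribosomal protein genes was 0.439% to 0.699% (median 0.593%) in the 6 libraries with the prefix 4, 0.686% to 1.38% (median 1.21%) in the 6 with the prefix 3 and 0.949% to 1.56% (median 1.39%) in the 7 with the prefix 5. Prefix 4 holds 2 PBS and 2 IAKA mice at 24 hours and 2 PBS mice at 2 weeks, prefix 3 holds only IAKA mice, and prefix 5 holds 1 PBS mouse at 24 hours with 3 PBS and 3 IAKA mice at 2 weeks. The comparison of prefixes was added after these shares had been seen.

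With treatment and time in the fit, 69 of 78 members were higher and 1 lower in libraries with the prefix 5 than in those with the prefix 4 (89.7% called, beside 25.2% of all genes; 88.5% higher, beside 13.7% of all genes, and 1.28% lower, beside 11.5%). The member median was 1.36 and that of all genes 0.07. In PBS mice alone 66 of 77 were higher and 1 lower, with a median of 1.37, beside 18% and 18.3% of all genes. In 43 members (55.1%, beside 9.31% of all genes) every library with the prefix 5 lay above every library with the prefix 4. Large subunit genes (42 of 47 higher, median 1.45) and small subunit genes (27 of 31 higher, 1 lower, median 1.25) differed alike in direction.

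Rps27 ran from 15.5 to 25.5 CPM (median 21.9) with the prefix 4 and from 46.9 to 452 CPM (median 94.0) with the prefix 5 (2.52, SE 0.61, adjusted P = 0.00658). Rpl17 ran from 46.5 to 73.8 CPM (median 58.3) and from 138 to 641 CPM (median 189), and Rpl23a from 147 to 233 CPM (median 168) and from 376 to 680.5 CPM (median 565). These 3 genes did not overlap between the prefixes. Rps23 (2.20, SE 0.33, adjusted P = 0.000587), Rpl12 (2.18), Rps7 (2.08), Rpl5 (2.08) and Rplp1 (1.95) were also higher. Rpl6l had the largest estimate (2.63, adjusted P = 0.0285) but never exceeded 1.85 CPM in an m6A library. Rplp0 (0.80) and Rpsa (0.67) were higher by less, and Rplp2 was not called (0.57, adjusted P = 0.201). The single member called lower, Rps4l, ran from 10.5 to 21.1 CPM (median 16.8) with the prefix 4 and from 5.62 to 10.4 CPM (median 9.38) with the prefix 5 (-0.67, SE 0.23, adjusted P = 0.0413). Among the lists, 17 of 26 translation factors were higher and 0 lower (median 0.99), 7 of 37 biogenesis genes were higher and 5 lower, and 21 of 79 mitochondrial ribosomal protein genes were higher and 1 lower.

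**Figure D5:**
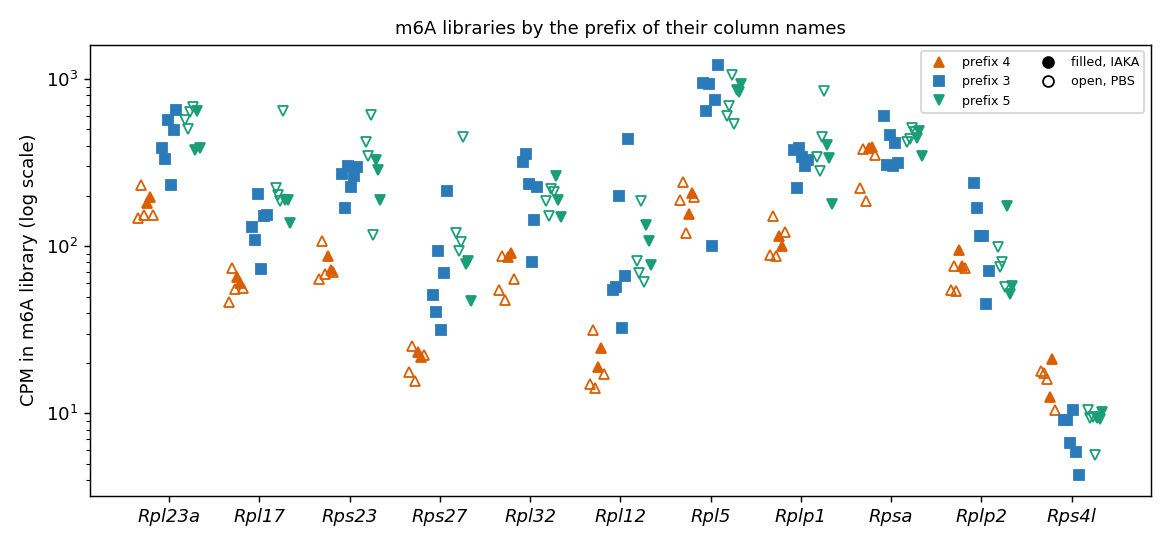
CPM (log scale) of 11 ribosomal protein genes in each of the 19 m6A libraries, by the prefix of the column name; filled symbols are IAKA and open symbols PBS mice. Libraries with the prefix 4 lie lowest for Rpl23a, Rpl17, Rps23 and Rps27 and highest for Rps4l, in both treatments.

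None of the 13 mice of the within-mouse comparison had an m6A library with the prefix 4, so that comparison rests on the prefixes 3 and 5. The inputs of these mice carry no prefix or the word Input. Assay and column prefix therefore cannot be told apart in that comparison, and pairing by mouse does not separate them. For the comparisons of IAKA with PBS the prefix is not evenly spread. Within the prefix 4 at 24 hours (2 IAKA and 2 PBS mice) the member median was 0.10, and within the prefix 5 at 2 weeks (3 and 3 mice) it was -0.02. Without the libraries of prefix 4 it was -0.33 at 24 hours and -0.11 at 2 weeks. No member was called in any of these. In the inputs, where 4 IAKA columns carry the word Input and all others no prefix, the median with this as a block was -0.14 at 24 hours and -0.42 at 2 weeks, with 75 of 80 members below 0 at 2 weeks and a median of all genes of -0.08.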

How the data were processed

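The authors' sample notes name genome build mm10. The aligner, the counter and whether strand was used: not given in the sources used here. Genes sharing sequence or overlapping on opposite strands may have had reads split. The values deposited are raw read counts per gene symbol, in 4 sequencing lanes and 15 files, with no normalization by the authors. RNA was extracted with Trizol, 5 ug of total RNA entered immunoprecipitation (the labels also mention polyA RNA), and libraries were made with a stranded total RNA kit.

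The 140 columns used hold the lanes of 35 libraries and were added up per library. A further 8 columns match no listed library and were not used. Column names give the assay for 8 libraries, and for 27 it was inferred from the presence of a numeric prefix. Groups and mouse numbers came from the labels, so input and m6A libraries of 1 mouse were paired by animal. As a check, deviations from group means correlated between a mouse's own libraries at 0.00165 to 0.853, its own pair being the best in 8 of 12 mice. Each library is 1 mouse.

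Members, lists and tests were chosen with earlier results of these data known. Tests used edgeR 4.0.16 (TMM, filterByExpr, robust quasi-likelihood) in R 4.3.3, with Benjamini-Hochberg adjustment over all genes and a threshold of 0.05. Mouse was a block in the within-mouse fit, and in the others all 4 groups of an assay shared 1 estimate of the spread. The standard error (SE) was taken from the fold change and the F statistic. CPM are counts per 1000000 of the library total. Alternatives used DESeq2 1.42.0, limma 3.58.1, library size scaling, other filters and left-out libraries. The text names, in each comparison, up to 5 called members higher and 5 lower with the largest change, the restricted paralogs with their partners, the stalk genes, Rpsa, Rps6, Rpl5, Rpl11, Rps27a and the 3 members with the most and the 3 with the fewest counts; others were named after their values were seen. The fits were tested on simulated counts. For IAKA against PBS in the m6A libraries they recovered 0 of 200 simulated 2-fold changes at 24 hours and 3 at 2 weeks. In the inputs 0 of 200 were recovered at 24 hours, where PBS is 1 library, and 44 of 200 at 2 weeks. The within-mouse fit recovered 191 of 200. Coding sequences, exons and snoRNA genes came from GENCODE on GRCm39 and transcript starts from RefSeq on GRCm38.p6. Tables used pandas 2.3.3, and figures matplotlib 3.10.9, in Python 3.11.15. The values of 2 members are not reported here by gene.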

Additional observations from a re-analysis of the deposited data

Results flagged for a closer look

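In 109 groups of at least 4 libraries of the named genes, 12 held 1 library far from the others. Chance gives this in about 1 group in 20 if groups are independent and their values normally distributed, which was not tested for CPM. The genes here share libraries, so 12 of 109 cannot be set against that rate. Of these, 5 came from the m6A library of PBS mouse 4 at 2 weeks: Rpl14 at 522 CPM (next 89.1), Rpl17 at 641 (next 203), Rpl3 at 1244 (next 381), Rpl37 at 242 (next 56.3) and Rps27 at 452 (next 106). The m6A library of IAKA mouse 6 at 2 weeks gave 3: Rpl12 at 437 CPM (next 134), Rpl37 at 56.1 (next 35.1) and Rps27 at 215 (next 81.5). Mitochondrial mRNAs took 17.5% of the counts of that library.

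At 24 hours, Rpl12 stood at 199 CPM in the m6A library of IAKA mouse 8 (next 56.9) and Rps4x at 123 CPM in that of IAKA mouse 67 (next 62.9). At 2 weeks, Rps3 stood at 725 CPM in the m6A library of IAKA mouse 21 (next 252), and Rps4l at 7.82 CPM in the input of IAKA mouse 9 (next 5.62).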

How the results depend on the processing

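Of the 39 members called within mouse, 31 kept the call when any 1 mouse was left out; Rpl12, Rpl13a, Rpl28, Rpl36, Rpl36a, Rpl5, Rps27a and Rps29 lost it at least once, and the counts ran from 19 to 24 higher and from 13 to 19 lower. All 39 kept it with DESeq2 (22 higher, 19 lower; 17.3% and 15.5% of all genes), and limma voom gave 26 and 18 (22.9% and 23.8%). Scaling by library size alone, which moved the median of all genes from -0.03 to 0.18 and that of members to 0.27, gave 35 higher and 8 lower (33.5% and 3.26% of all genes). Without the replicate block, which here pairs libraries by mouse, 16 were higher and 9 lower (8.22% and 4.29% of all genes). PBS mice alone gave 3 and 2 (0.377% and 0.721% of all genes), IAKA mice alone 19 and 11 (10.4% and 7.61%), 24-hour mice alone 7 and 2 (0.657% and 0.299%), and 2-week mice alone 18 and 17 (12% and 9.85%). Among the named genes, signs turned for Rpl27 with pseudogene counts added (0.54), and in 24-hour mice alone, where these were not called, for Rpl35 (0.0457), Rplp2 (0.0988) and Rps27a (0.0391).

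In the inputs at 24 hours, DESeq2 called 1 member higher (Rplp0; 0.442% of all genes higher, 0.697% lower), limma voom 1 higher and 5 lower (median -0.26; 3.2% and 2.79%), the fit without IAKA mouse 8 4 lower (median -0.27; 0.591% lower) and that of inputs without a prefix, added after seeing the data, 4 lower (median -0.27; 0.924% lower). Library size alone gave a median of -0.33. In the m6A libraries at 24 hours limma voom called 1 member higher, Rplp0 (5.28% of all genes). The time difference in the inputs turned to 0.0463 (limma voom), 0.0924 (library size alone) and 0.0124 (without IAKA mouse 8), and was -0.49 with all 16 inputs. With 1 library left out, the medians ran from -0.27 to 0.14 (inputs, 24 hours), -0.35 to -0.07 (inputs, 2 weeks), -0.0462 to 0.91 (m6A, 24 hours, the highest without PBS mouse 1), 0.07 to 0.43 (m6A, 2 weeks), -0.39 to 0.0124 (time difference, inputs) and -0.71 to 0.23 (time difference, m6A, the lowest without PBS mouse 1). Between the prefixes 5 and 4, DESeq2 gave 70 higher and 1 lower (17.1% and 14.8% of all genes), and library size alone 68 and 0 (11.4% and 10.3%). The cause of these differences was not tested. Depth, a single PBS input at 24 hours and groups of 3 to 6 mice limit what the IAKA comparisons can show.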

Other observations

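Rpl10l, a paralog of Rpl10 known from testis, had 2.02 CPM in the input and 2.08 CPM in the m6A library of IAKA mouse 8 at 24 hours. In the other 12 inputs it ran from 0 to 0.32 CPM, the value of 0.32 being PBS mouse 1 at 24 hours, and in the other 18 m6A libraries it stayed at or under 0.09 CPM. Both libraries are of 1 animal, so this is 1 observation. They held counts in 28574 and 28496 genes, the most of any input and of any m6A library. Mitochondrial mRNAs took 17.4% and 16.4% of their counts. The input of PBS mouse 1 held counts in 25529 genes. Whether this bears on Rpl10l was not tested.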
